A study of Mus musculus with 24 samples.

Results

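The 9 genes described here encode the microglial receptor TREM2, its adaptors and the signalling proteins that act with or against them: Trem2, Tyrobp, Hcst, Syk, Plcg2, Inpp5d, Cd33, Vav1 and Btk. They were chosen by symbol for their known roles, but with earlier results of these data known. Counts of members called, set beside the share of all genes, are therefore a description only. All 9 were found in the expression table, 9 of 36333 genes. RNA sequencing was performed on 24 male mice, killed at 5 dpi, with 1 library per mouse. The labels give their age as 12 to 16 weeks, and the study's methods give a narrower range within it. TBI was induced by controlled cortical impact (CCI) in 20 of them, which then received vehicle, PLX3397 (an inhibitor of the kinase CSF1R, at 290 mg/kg in chow), Anakinra (a blocker of the interleukin-1 receptor IL1R1, injected subcutaneously at 100 mg/kg) or PLX3397+Anakinra, with 5 mice each. The 4 sham mice had anesthesia and a skin incision without craniotomy or impact, and vehicle in place of both drugs. The strain is given as C57BL6N in the labels and as C57BL/6JRj in the study's methods, and neither names a transgene. The question addressed was how each drug, alone or combined, changes the response of the lesioned brain tissue.

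The labels name cortex as the tissue, but the sections also held striatum, dorsal hippocampus and thalamus, and the striatal gene Ppp1r1b was abundant in every library. Values are given as TPM, a unit that the study's methods say is called CPM in CLC. They have the same total in each library and were taken as scaled by gene length. Comparisons of levels between genes rest on this reading, and those between mice do not. The depth of the libraries is unknown because TPM keep no read counts, and precision therefore rests on the spread between mice. The 10 microglial marker genes summed to 1370–1735 TPM with vehicle, 1498–1709 with Anakinra, 586.8–890.4 with PLX3397, 536.3–717.3 with PLX3397+Anakinra and 357.6–377.6 in sham mice, and none of them was at 0 in any library. The 7 markers of border macrophages summed to 75.68–156.5 TPM with vehicle, 73.53–107.6 with Anakinra, 34.46–69.65 with PLX3397, 13.64–20.62 with PLX3397+Anakinra and 11.35–14.44 in sham mice. These 7 did not move alike. With injury 5 were called higher and 1 lower, compared with 26.6% and 27.7% of all genes. Against vehicle, 6 of the 7 were lower with PLX3397 (6.66% of all genes) and 6 with PLX3397+Anakinra (9.6%). Against sham, 3 were higher and 3 lower with PLX3397, and 3 higher and 4 lower with PLX3397+Anakinra. In these 2 comparisons with sham 22.7% and 20.7% of all genes were higher. The share of all genes lower than sham was not computed, so the lower counts have no background. The 8 monocyte and neutrophil markers summed to 6.143–38.63 TPM with vehicle, 13.94–56.16 with Anakinra and 14.35–52.97 with PLX3397. Their sums were 11.08–26.8 TPM with PLX3397+Anakinra and 0.5858–3.585 in sham mice, and Ly6g was at 0 in 21 libraries. Only 4 of the 8 were expressed highly enough to be tested. All 4 were higher with injury (26.6% of all genes), and with PLX3397 1 was lower (6.66% of all genes) and 0 higher (3.23%). In bulk tissue, fewer cells of a type and less RNA per cell cannot be told apart, and the part that cell number has in the results below was not tested.

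TREM2 is a surface receptor of microglia and macrophages that binds lipids and lipoproteins and is known for its role in the response of these cells to damaged tissue. It has no signalling motif of its own and pairs with TYROBP (also named DAP12), whose cytoplasmic ITAM, a pair of spaced tyrosines, recruits the kinase SYK once phosphorylated. SYK and the kinase BTK then activate the phospholipase PLCG2 and the Rac activator VAV1. HCST (DAP10) recruits PI3 kinase instead, the lipid phosphatase INPP5D (SHIP1) removes the product of PI3 kinase, and CD33 is a sialic acid-binding receptor that in humans carries an inhibitory motif.

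The genes lie on 6 chromosomes of GRCm38: Trem2 (chr17:48346401-48354147, + strand) and Vav1 (chr17:57279100-57328031, +) on chromosome 17, Tyrobp (chr7:30413760-30417585, +), Hcst (chr7:30417712-30419854, -) and Cd33 (chr7:43524216-43544428, -) on chromosome 7, and Syk (chr13:52583173-52648792, +), Plcg2 (chr8:117498291-117635142, +), Inpp5d (chr1:87620312-87720507, +) and Btk (chrX:134542336-134583570, -) alone. The adaptor genes Tyrobp and Hcst face each other tail to tail with 126 bases between their annotated ends. Whether the counting used strand is not given in the sources used here, so that reads beyond the end of the abundant Tyrobp could not be told apart from Hcst by strand.

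Because all 9 members were called higher with injury and lower with PLX3397, the 250 bases before their transcription starts were examined (RefSeq, GRCm38.p6). This gave 9 windows for 8 members, with 2 for Syk and none for Tyrobp. The letters GAGGAA, a core of sites bound by the myeloid factor PU.1, were searched on both strands and occurred in 5 of the 9 windows (Trem2, Inpp5d, Vav1, Syk and Cd33), compared with 23.3% of 32851 promoters. The RUNX core TGTGGT was found in 1 window (Cd33), compared with 14% of all promoters, and the AP-1 site TGANTCA in 1 (Trem2), compared with 6.75%. The PU.1-IRF composite element was in none of the 9, compared with 2.3% of all promoters. The other window of Syk held no GAGGAA, and what binds at these sites was not tested. The 5 windows with GAGGAA are shown because they hold the letters found in most windows. Capitals mark GAGGAA, or TTCCTC where it lies on the opposite strand, and each window ends at the base before the start. They are chr17:48346151-48346400 (+) for Trem2, chr1:87620062-87620311 (+) for Inpp5d, chr17:57278850-57279099 (+) for Vav1, chr13:52596632-52596881 (+) for an inner start of Syk and chr7:43533172-43533421 (-) for Cd33. The windows of Syk and Cd33 lie inside the gene spans given above.
Trem2: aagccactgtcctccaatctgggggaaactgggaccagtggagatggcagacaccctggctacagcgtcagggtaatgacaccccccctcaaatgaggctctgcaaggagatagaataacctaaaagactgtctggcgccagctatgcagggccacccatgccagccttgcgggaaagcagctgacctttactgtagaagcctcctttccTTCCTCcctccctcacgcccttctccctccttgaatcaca
Inpp5d: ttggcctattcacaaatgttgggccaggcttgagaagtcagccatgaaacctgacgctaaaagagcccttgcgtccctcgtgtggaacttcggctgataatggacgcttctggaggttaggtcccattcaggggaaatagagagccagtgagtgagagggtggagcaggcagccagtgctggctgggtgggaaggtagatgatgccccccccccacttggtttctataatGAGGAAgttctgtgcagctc
Vav1: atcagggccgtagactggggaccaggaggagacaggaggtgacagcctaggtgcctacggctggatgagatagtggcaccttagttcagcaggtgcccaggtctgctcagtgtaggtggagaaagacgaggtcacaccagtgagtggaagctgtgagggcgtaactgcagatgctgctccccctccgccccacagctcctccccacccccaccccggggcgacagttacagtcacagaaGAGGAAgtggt
Syk, inner start: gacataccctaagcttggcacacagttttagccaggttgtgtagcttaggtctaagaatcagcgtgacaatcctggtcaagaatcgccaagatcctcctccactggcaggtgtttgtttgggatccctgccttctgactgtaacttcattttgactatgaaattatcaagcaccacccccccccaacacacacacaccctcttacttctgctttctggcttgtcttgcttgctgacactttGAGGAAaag
Cd33: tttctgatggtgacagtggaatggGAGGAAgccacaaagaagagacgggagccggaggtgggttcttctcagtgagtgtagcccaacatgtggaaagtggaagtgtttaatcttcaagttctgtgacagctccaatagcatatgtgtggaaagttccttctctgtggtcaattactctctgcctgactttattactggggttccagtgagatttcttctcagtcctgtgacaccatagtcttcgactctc
The motif began 9 to 40 bases before the start in 4 of these windows, namely 40 in Trem2, 20 in Inpp5d, 11 in Vav1 and 9 in Syk, and 226 bases before it in Cd33.

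All 9 members were higher with vehicle than in sham mice at adjusted p below 0.05 (limma, Benjamini-Hochberg over 17267 genes), compared with 26.6% of all genes tested. Log2 fold changes on the log2(TPM + 1) scale ranged from 1.53 for Cd33 to 3.43 for Tyrobp, with a median of 2.13 over the members and -0.013 over all genes. The vehicle and sham ranges did not overlap in any of the 9, compared with 21.7% of genes. Each member also passed the DEG rule (unadjusted p below 0.05, a ratio of mean TPM above 2 and a difference above 4 TPM), compared with 5.11% of genes.

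All 9 members were lower with PLX3397 than with vehicle, compared with 6.66% of genes, with log2 fold changes from -1.53 for Cd33 to -0.80 for Hcst (median -1.01, all genes 0.006). The PLX3397 and vehicle ranges of all 9 were separate, compared with 4.91% of genes. The DEG rule called 6 of the 9, compared with 0.932% of genes. Trem2, Tyrobp and Hcst missed it by the ratio of means, with vehicle means 1.99, 1.96 and 1.88 times those with PLX3397. The unequal-variance test on TPM called 6 members, compared with 1.7% of genes, and gave adjusted p-values of 0.0537 for Tyrobp, 0.0529 for Hcst and 0.072 for Syk.

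Anakinra alone called none of the 9 against vehicle in limma, compared with 0.0463% of genes lower. None had an unadjusted p below 0.05, as 12.4% of genes had, and the unequal-variance test called none of the 9 and 0% of genes lower. The log2 fold changes lay between -0.236 for Syk and 0.024 for Tyrobp, with adjusted p from 0.444 to 0.988. The ranges of all 9 overlapped, where 1.42% of genes had Anakinra values wholly below vehicle, and no member met the DEG rule, met by 0.0174% of genes. The 95% intervals limit the change of Trem2 to between -0.414 and 0.082, and that of Syk to between -0.493 and 0.021 on the log2 scale.

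With PLX3397+Anakinra, all 9 were lower than with vehicle, compared with 9.6% of genes. The log2 fold changes ran from -1.62 for Cd33 to -0.999 for Hcst (median -1.35, all genes 0.014). The ranges were separate for all 9 (6.62% of genes), and all 9 met the DEG rule (1.55% of genes). Against Anakinra alone, the combination was lower for all 9 as well, compared with 8.1% of genes, with log2 fold changes from -1.60 to -0.99. Here too the ranges of all 9 were separate (7.26% of genes) and the DEG rule called all 9 (1.55% of genes). The comparisons with vehicle share the 5 vehicle mice, and those of PLX3397+Anakinra share its 5 mice.

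Adding Anakinra to PLX3397 gave lower means for all 9 members, but none passed at adjusted p below 0.05, as 0.145% of genes did. The largest differences were -0.37 for Tyrobp (95% interval -0.627 to -0.114), -0.357 for Vav1 (-0.563 to -0.152), -0.355 for Syk (-0.612 to -0.098) and -0.339 for Trem2 (-0.588 to -0.091). These 4 had an unadjusted p below 0.05, as 3.78% of genes had in this direction, and their adjusted p was lowest for Vav1, at 0.2. Without PLX3397+Anakinra mouse J03, Vav1 passed with a log2 fold change of -0.438 and an adjusted p of 0.0476. The unequal-variance test called 0 members and 0% of genes lower. The ranges were separate for 1 member, Syk, compared with 0.764% of genes, and the DEG rule called none (0.0927% of genes). The interaction of the drugs passed for 0 members and for 0% of genes in limma, with the smallest adjusted p over the members at 0.584 and 2 members (Tyrobp and Vav1) at an unadjusted p below 0.05, compared with 8.08% of genes.

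**Figure D1:**
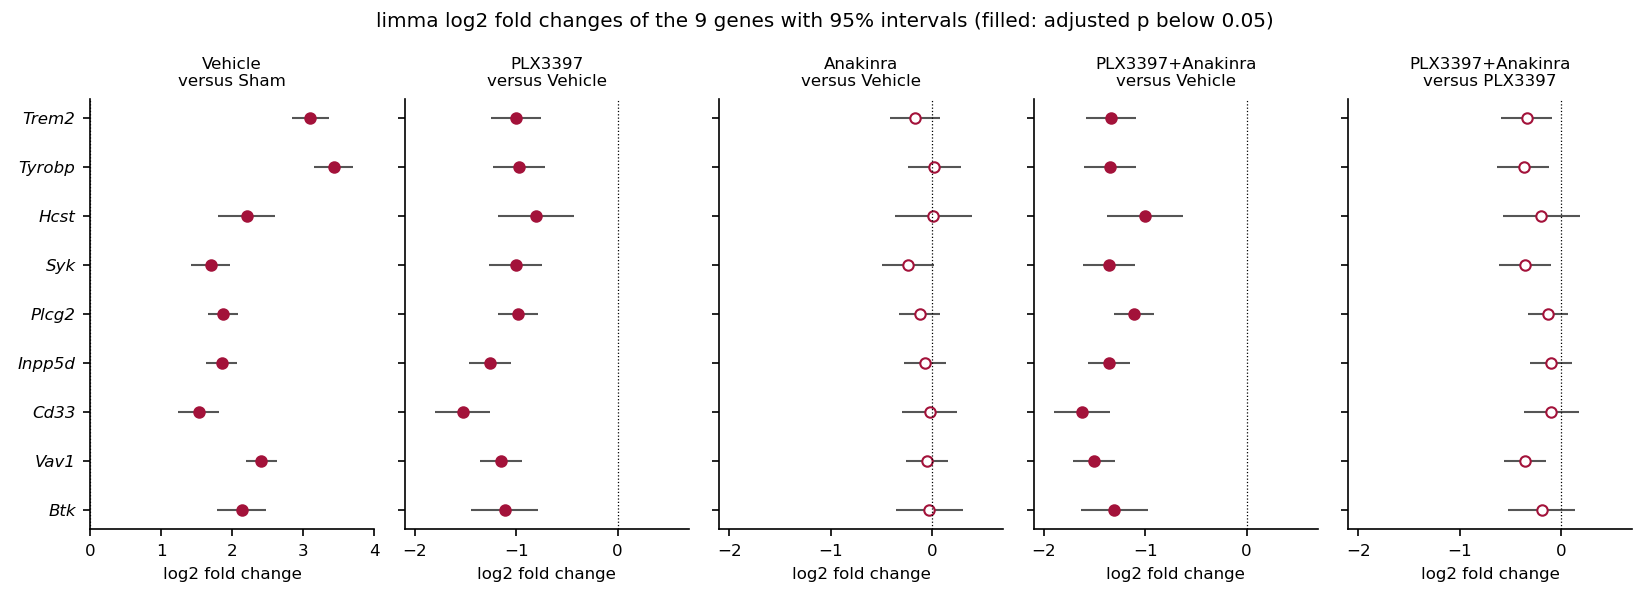
Log2 fold changes of log2(TPM + 1) (horizontal axes) for the 9 genes (rows) in 5 comparisons, as points with 95% intervals from limma. Filled points have an adjusted p below 0.05; all 9 are filled for injury, for PLX3397 and for the combination against vehicle, and none for Anakinra or for the combination against PLX3397. The first panel has its own axis range, from 0 to 4.

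Trem2, the receptor, measured 31.98, 34.57, 24.91 and 28.9 TPM in the sham mice and 244.8, 208.4, 298.9, 294.8 and 284.5 TPM with vehicle. Vehicle values were thus all far above sham, with means of 266.3 ± 38.8 and 30.09 ± 4.16 TPM (SD, n = 5 and 4), a ratio of 8.85. With PLX3397 the 5 mice had 112.4, 184.7, 114.7, 128.8 and 127.5 TPM, and with PLX3397+Anakinra 121.3, 115.4, 99.05, 101.4 and 84.93 TPM. Every mouse given PLX3397, alone or combined, was below every vehicle mouse and above every sham mouse. The log2 fold change against vehicle was -1.001 ± 0.12 (SE) for PLX3397 (adjusted p = 1.71e-06) and -1.34 ± 0.12 for the combination (adjusted p = 7.77e-09). With Anakinra, Trem2 measured 255.4, 218.1, 217.9, 245.2 and 241.5 TPM, within the vehicle range in all 5 mice.

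Mouse J02 had the highest Trem2 value with PLX3397, and it was the highest of the PLX3397 mice for each of the 9 members. Its microglial markers summed to 890.4 TPM, where the other PLX3397 mice had 586.8–699. In the same way, vehicle mouse J17B was the lowest vehicle mouse for each of the 9 and had the lowest sum of microglial markers, 1370 TPM. Without either mouse the counts of members called were the same in all comparisons, and without J02 the log2 fold change of Trem2 with PLX3397 was -1.12.

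Tyrobp, the ITAM adaptor of TREM2, was the most abundant member in every group. It measured 55.67, 54.13, 42.9 and 47.77 TPM in sham mice and 540.7, 407.5, 625.7, 660.4 and 543.3 TPM with vehicle. This was the largest rise of the 9, at 3.43 ± 0.13 on the log2 scale (adjusted p = 1.8e-16). The PLX3397 mice had 224, 389.8, 252.3, 253.6 and 297.4 TPM, and the mice with both drugs 230, 242.8, 202.2, 212.5 and 191 TPM. Both sets lay below the lowest vehicle mouse, and the log2 fold changes were -0.98 ± 0.13 (adjusted p = 4.19e-06) and -1.35 ± 0.13 (adjusted p = 1.27e-08). With Anakinra the values were 502.8–629.3 TPM, inside the vehicle range.

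Hcst, the adaptor that recruits PI3 kinase, was about as low as the kinases. It averaged 1.243 ± 0.438 TPM in sham mice (n = 4), 9.292 ± 1.53 with vehicle, 4.942 ± 1.2 with PLX3397, 9.4 ± 1.6 with Anakinra and 4.304 ± 1.44 with PLX3397+Anakinra (n = 5 each). It had the smallest falls of the 9 members, -0.80 ± 0.18 with PLX3397 (adjusted p = 0.00467) and -0.999 ± 0.183 with the combination (adjusted p = 0.000317). The 5 mice with both drugs ran from 1.866 to 5.513 TPM. The lowest of them, mouse J09, was next to the highest sham mouse (1.842), whereas the other 4 had 4.193 to 5.513 TPM, inside the PLX3397 range.

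**Figure D2:**
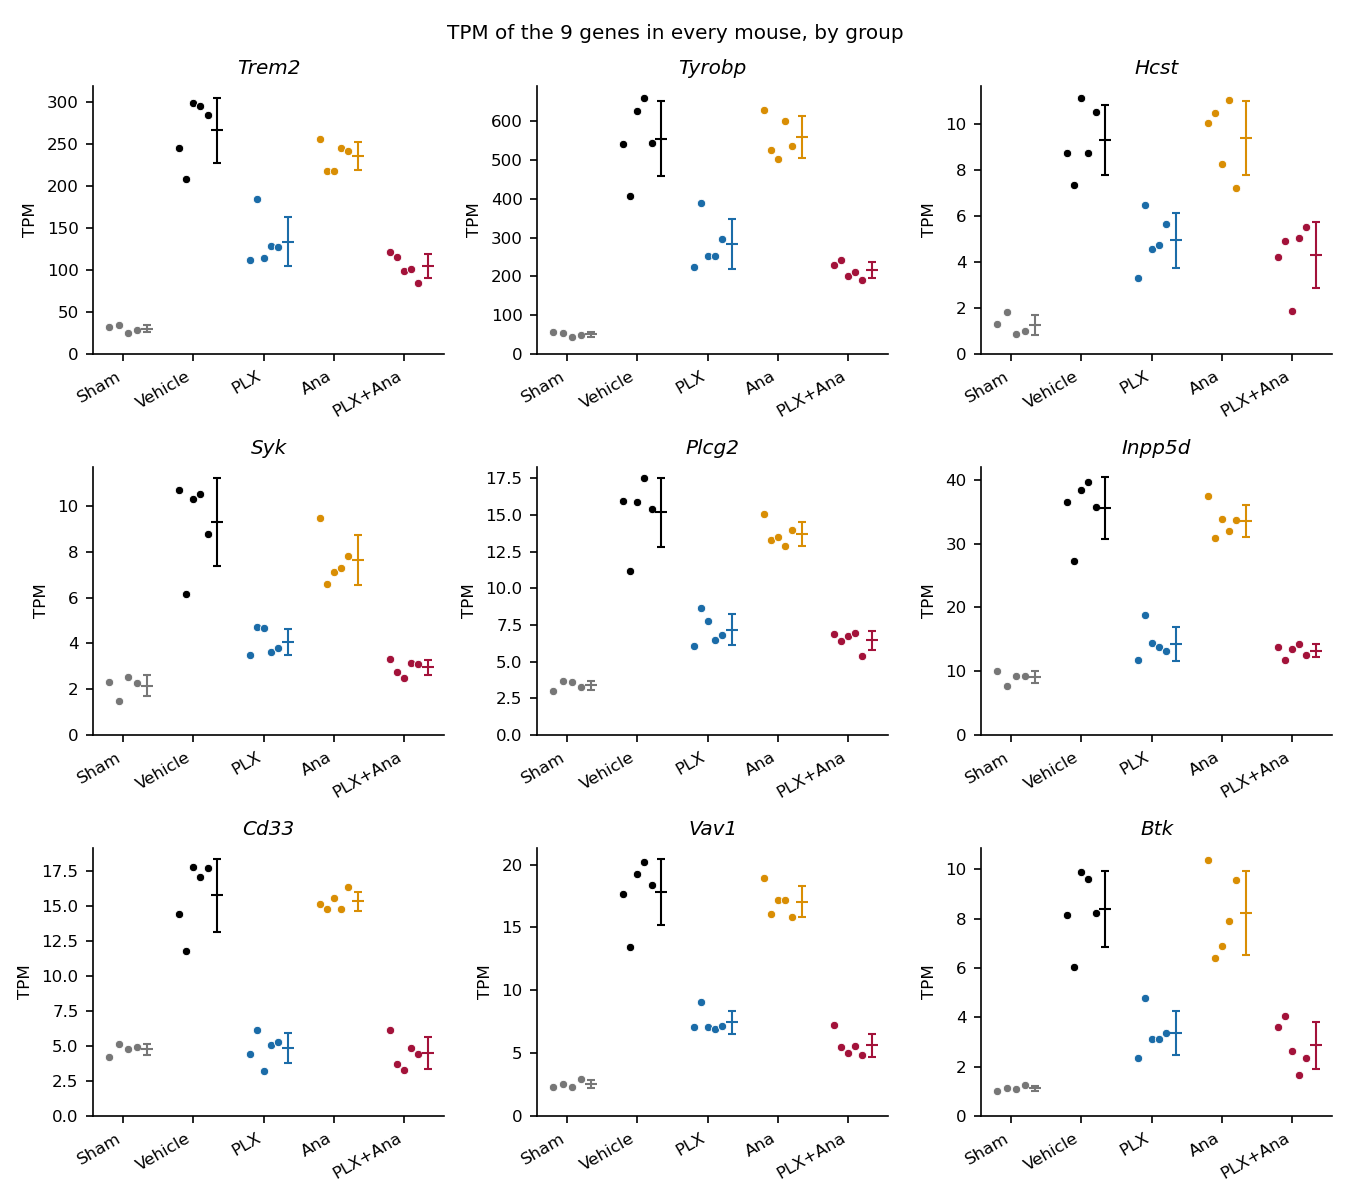
TPM (vertical axes, from 0) of each of the 9 genes in every mouse, with 4 sham mice and 5 mice in each other group (PLX, PLX3397; Ana, Anakinra). Points are mice, and bars beside them the mean ± SD. Vehicle and Anakinra mice form the upper level in every panel, and for Cd33 the mice given PLX3397 reach the level of the sham mice, 4.171–5.11 TPM.

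Syk, the kinase that binds phosphorylated ITAMs, measured 2.318, 1.476, 2.538 and 2.258 TPM in sham mice and 10.7, 6.137, 10.31, 10.54 and 8.76 TPM with vehicle. The PLX3397 mice had 3.509, 4.713, 4.662, 3.632 and 3.815 TPM, and the combination mice 3.315, 2.725, 2.497, 3.129 and 3.101 TPM. The PLX3397 and combination groups did not overlap for Syk, while the combination overlapped the sham group, since its lowest mouse (2.497) was below the highest sham mouse (2.538). Against sham, Syk remained higher with the combination by 0.337 ± 0.132 on the log2 scale (adjusted p = 0.0456). This call was kept in 2 of the 9 fits that left out 1 mouse of these groups, with an adjusted p of up to 0.204, and was lost when genes of low mean TPM were tested too (adjusted p = 0.0857) and in the unequal-variance test (0.0825).

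Btk, a Tec family kinase that activates PLCG2, had the lowest mean of the members in sham mice, with single values of 1.021–1.243 TPM. It reached 8.376 ± 1.53 TPM with vehicle and 8.218 ± 1.72 with Anakinra, against 3.349 ± 0.889 with PLX3397 and 2.855 ± 0.96 with the combination (n = 5 each). The falls were -1.11 ± 0.16 (adjusted p = 2.3e-05) and -1.30 ± 0.16 (adjusted p = 1.25e-06). Plcg2, the phospholipase that releases the second messengers of the pathway, went from 2.997–3.68 TPM in sham mice to 11.19–17.49 with vehicle. It was 6.089–8.683 TPM with PLX3397, 12.89–15.04 with Anakinra and 5.35–6.925 with both drugs, so that the groups given PLX3397 overlapped each other but neither vehicle nor sham.

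Vav1, which loads Rac with GTP and so acts on the actin skeleton, measured 2.287–2.971 TPM in sham mice and 17.7, 13.42, 19.23, 20.24 and 18.36 TPM with vehicle. With PLX3397 it was 7.036, 9.027, 7.084, 6.899 and 7.161 TPM, and with PLX3397+Anakinra 7.198, 5.462, 5.044, 5.529 and 4.82 TPM. In the combination group, 4 of the 5 mice were below every PLX3397 mouse, and mouse J03 was within the PLX3397 range. Vav1 fell by 1.15 ± 0.1 with PLX3397 (adjusted p = 1.49e-08) and fell by 1.51 ± 0.1 with the combination (adjusted p = 1.27e-10), the smallest adjusted p among the members in that comparison.

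Inpp5d, the lipid phosphatase that opposes PI3 kinase, averaged 9.053 ± 0.979 TPM in sham mice (n = 4), 35.55 ± 4.87 with vehicle, 33.57 ± 2.5 with Anakinra, 14.33 ± 2.65 after PLX3397 alone and 13.18 ± 1.02 after PLX3397+Anakinra (n = 5 each). Both falls were clear of the vehicle range, at -1.26 ± 0.1 (adjusted p = 5.45e-09) and -1.36 ± 0.1 (adjusted p = 3.74e-10). All 10 mice given PLX3397 were above all 4 sham mice, and the difference from sham was 0.60 ± 0.11 with PLX3397 and 0.50 ± 0.11 with both drugs (adjusted p = 5.45e-05 and 0.000545).

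Cd33 behaved differently in its relation to sham. It measured 4.171, 5.11, 4.795 and 4.882 TPM in sham mice and 14.37, 11.79, 17.79, 17.07 and 17.7 TPM with vehicle, the smallest rise of the 9 (1.53 ± 0.14). With PLX3397 the 5 mice had 4.446, 6.154, 3.21, 5.083 and 5.283 TPM, and with PLX3397+Anakinra 6.152, 3.681, 3.246, 4.872 and 4.392 TPM. These values lay on both sides of the sham mice. The falls against vehicle were the largest of the 9, -1.53 ± 0.13 with PLX3397 (adjusted p = 1.48e-08) and -1.62 ± 0.13 with both drugs (adjusted p = 1.63e-09). Against sham the differences were 0.004 (95% interval -0.284 to 0.293, adjusted p = 0.983) and -0.091 (-0.379 to 0.197, adjusted p = 0.645).

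Cd33 was therefore the only 1 of the 9 without a call against sham in either group given PLX3397. The other 8 remained higher than sham with PLX3397 (22.7% of all genes were higher in that comparison) and with PLX3397+Anakinra (20.7%), and all 9 were higher with Anakinra (25.1%). Among the 8, log2 fold changes against sham ran from 0.598 for Inpp5d to 2.46 for Tyrobp with PLX3397, and from 0.337 for Syk to 2.09 for Tyrobp with both drugs.

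Expressed as a share of the difference between the vehicle and sham means in TPM, a PLX3397 mouse kept on average 46.2 ± 12.9% for Tyrobp, 46 ± 14.9% for Hcst and 43.8 ± 12.5% for Trem2 (SD over 5 mice; the error of the vehicle and sham means is not included). The share was 32.2 ± 5.84% for Vav1, 32.1 ± 8.91% for Plcg2, 30.8 ± 12.3% for Btk, 26.9 ± 8.09% for Syk, 19.9 ± 10% for Inpp5d and 0.866 ± 9.95% for Cd33. The lowest PLX3397 mouse for Trem2 (34.8%) and for Tyrobp (34.4%) was above the highest for Cd33 (12.9%). Neighbours in this order overlapped mouse by mouse. With both drugs the shares were 38 ± 17.9% for Hcst, 32.8 ± 4.13% for Tyrobp, 31.5 ± 6.07% for Trem2, 26 ± 5.52% for Plcg2, 24 ± 13.2% for Btk, 20.2 ± 6.12% for Vav1, 15.6 ± 3.84% for Inpp5d, 11.3 ± 4.66% for Syk and -2.47 ± 10.3% for Cd33. With Anakinra they lay between 77 ± 15.4% (Syk) and 101 ± 19.9% (Hcst).

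**Figure D3:**
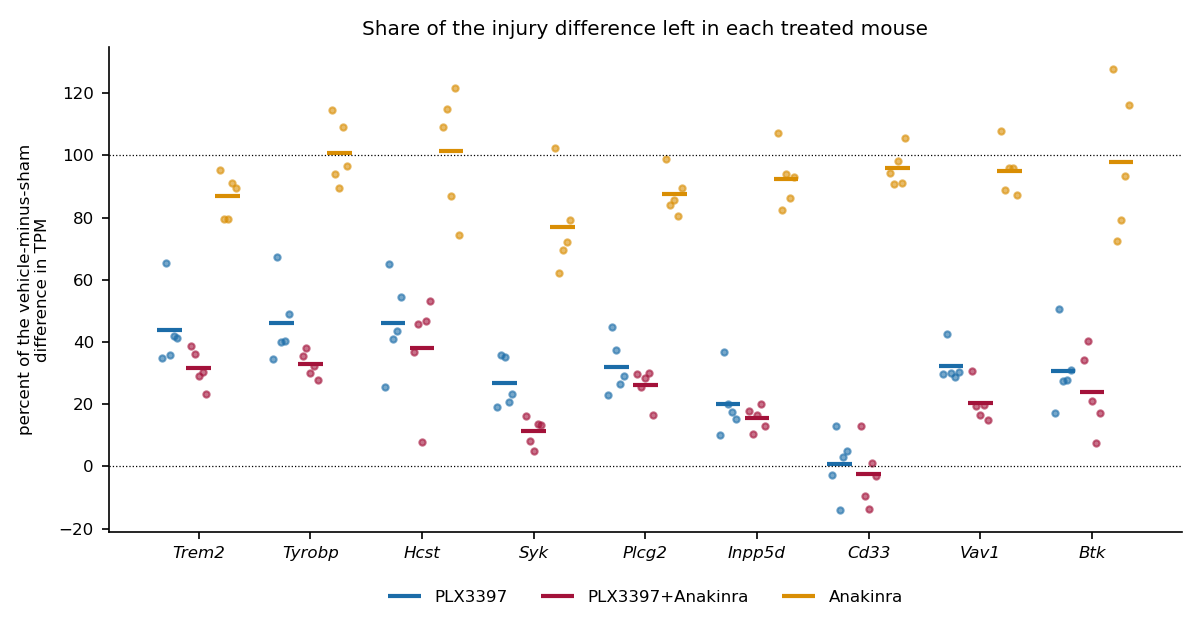
TPM of each treated mouse as a percent of the difference between the vehicle and sham means (vertical axis; dotted lines, 0 for the sham mean and 100 for the vehicle mean), for the 9 genes. Points are mice, 5 per group, and bars their means. Anakinra groups average from 77 for Syk to 101 for Hcst, with all 5 mice below 100 for Trem2 and for Plcg2, PLX3397 mice average from 0.866 for Cd33 to 46.2 for Tyrobp, and PLX3397+Anakinra mice lie below them on average for each gene.

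Ratios of members within a library do not depend on how the library was scaled, and 4 ratios were compared in 6 comparisons each (24 exact two-sided permutation tests over mice, adjusted together). The log2 ratio of Trem2 to Tyrobp, receptor to adaptor, was -0.739 ± 0.069 in sham mice and -1.06 ± 0.103 with vehicle, a difference of -0.316 with all vehicle mice below all sham mice (exact permutation, adjusted p = 0.0317). With Anakinra the ratio was -1.25 ± 0.063, lower than vehicle by 0.191 (exact permutation, adjusted p = 0.0423), and with PLX3397+Anakinra it was -1.05 ± 0.089, higher than with Anakinra by 0.193 (exact permutation, adjusted p = 0.0423). The difference between PLX3397 and vehicle was -0.027 (exact permutation, adjusted p = 0.771). Each of the differences with Anakinra passed in 2 of the 10 fits that left out 1 mouse.

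The log2 ratio of Hcst to Tyrobp, the 2 adaptors, was lower with vehicle than in sham mice by 0.509 (-5.90 ± 0.213 and -5.39 ± 0.353; exact permutation, adjusted p = 0.0317). Trem2 to Syk, receptor to kinase, was higher with vehicle by 1.03 (4.86 ± 0.223 and 3.83 ± 0.526; exact permutation, adjusted p = 0.0423). Neither ratio passed in the 5 comparisons among TBI groups, where the smallest adjusted p of the exact permutation tests was 0.771 for Hcst to Tyrobp and 0.267 for Trem2 to Syk. With 1 mouse left out, none of the ratio differences between vehicle and sham mice passed in any of 9 fits each, where the exact permutation test gave an adjusted p of 0.0536 at best. The smallest possible p is higher with so few mice, so these fits cannot tell a weaker difference from the loss of a mouse. Each difference kept its sign in all 9 fits.

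Several members have a close relative, and these paralogues had smaller fold changes or were not called. The difference itself was tested for Plcg2 and Plcg1 only. The log2 ratio of Plcg2 to Plcg1, which is expressed broadly, was -4.08 ± 0.215 in sham mice and -1.70 ± 0.259 with vehicle. This difference was 2.38 (exact permutation, adjusted p = 0.0317). The ratio was lower than with vehicle by 1.12 with PLX3397 and by 1.32 with PLX3397+Anakinra (exact permutation, adjusted p = 0.0317 each). These 2 drug differences each passed in 6 of 10 fits that left out 1 mouse. The ranges lay apart, at -3.153 to -2.445 with PLX3397, -3.275 to -2.869 with both drugs and -2.059 to -1.373 with vehicle. They stay apart without any 1 mouse, so calls were lost through the adjustment with the other ratio tests. These fits therefore do not show a weaker difference. Plcg1 itself measured 57.18 ± 3.65 TPM in sham mice and 49.03 ± 4.51 with vehicle (log2 fold change -0.22 ± 0.07, adjusted p = 0.0096), and the drugs called no change in it. In sham mice Plcg1 thus stood far above Plcg2 (3.385 ± 0.315 TPM).

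Of the relatives of Vav1, Vav2 rose with injury from 8.851 ± 0.267 to 15.31 ± 2.02 TPM and fell by 0.44 ± 0.08 with PLX3397 (adjusted p = 0.000477) and fell by 0.48 ± 0.08 with both drugs (adjusted p = 0.000111). Vav3 had means between 12.16 and 13.66 TPM in all 5 groups and was not called in any comparison. Zap70, the relative of Syk best known from T cells, had means between 2.875 and 3.463 TPM and was not called either; its 95% interval for PLX3397 against vehicle was -0.309 to 0.3. Tec, the relative of Btk, followed the pattern of the members at a smaller size, with 2.083 ± 0.301 TPM in sham mice and 7.052 ± 1.03 with vehicle, and falls of -0.52 ± 0.11 and -0.67 ± 0.11 (adjusted p = 0.00169 and 4.92e-05). Inppl1, the relative of Inpp5d, rose from 26.82 ± 1.49 to 40.88 ± 2.9 TPM with injury (adjusted p = 6.44e-07), and its differences from vehicle with PLX3397 (-0.188, adjusted p = 0.115) and with both drugs (-0.161, adjusted p = 0.142) did not pass.

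**Figure D4:**
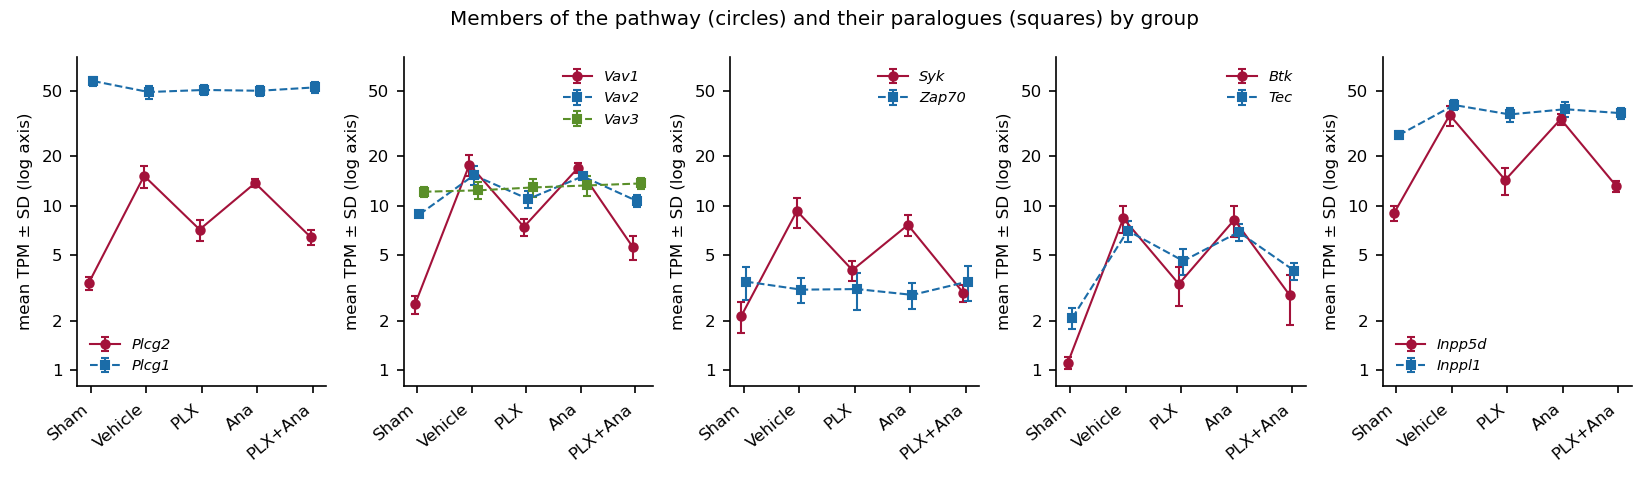
Mean TPM ± SD (vertical axes, log scale) of 5 members (circles, solid lines) and their paralogues (squares, dashed lines) in the 5 groups, with 4 sham mice and 5 mice in each other group. The members drop in both groups given PLX3397, while Plcg1, Vav3 and Zap70 stay within 45.25–60.44, 10.83–15.48 and 1.964–4.466 TPM over all mice.

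Beyond the 9 members, 12 lists of genes around the pathway held 114 genes, of which 93 were expressed highly enough to be tested. With injury 64 of the 93 were higher and 10 lower (median log2 fold change 0.689), compared with 26.6% and 27.7% of all genes (median -0.013). With PLX3397 51 were lower and 0 higher (median -0.442), compared with 6.66% and 3.23% of all genes (median 0.006). With Anakinra 1 was lower (median -0.038), compared with 0.0463% of all genes (median -0.015). With PLX3397+Anakinra 56 were lower and 3 higher (median -0.477), compared with 9.6% and 7.88% of all genes (median 0.014). These shares are the background for the counts of the single lists below. The lists were drawn up with earlier results of these samples known, so that their counts are a description only.

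Among 4 ligands of TREM2, 3 were higher with injury and 2 lower with PLX3397 and with the combination. These were Apoe, the main lipid carrier of the brain (log2 fold change 1.73 with injury, -0.607 with PLX3397 and -0.939 with both drugs, adjusted p = 1.11e-08 for the last), and the lectin Lgals3 (5.77, -0.567 and -1.31, adjusted p = 4.08e-06). Apoe had the largest difference of the ligands with Anakinra, -0.388, which did not pass (adjusted p = 0.0627). Of 8 genes for the shedding and cleavage of TREM2, 5 were higher with injury and 2 lower with either treatment that held PLX3397. Both of these encode the sheddases themselves, Adam17 (-0.459 with PLX3397 and -0.523 with both drugs) and Adam10 (-0.241 and -0.279).

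All 5 tested receptors that also use TYROBP or HCST, of 12 listed, rose with injury and fell with PLX3397 and with the combination. Clec5a, a C-type lectin, changed by 1.86, -0.911 and -1.22 in these comparisons. Siglech, a microglial lectin, rose by 0.742 only and fell by 1.48 and fell by 1.42, to a level below sham with PLX3397 (-0.74 ± 0.134, adjusted p = 6.82e-05). Treml2 was the only other TREM family receptor, of 5 listed, that was expressed highly enough to be tested, with 1.88, -0.806 and -1.16. Of 7 other ITAM chains 2 were tested, and both followed the members: Fcer1g, the chain of Fc receptors (3.53, -1.27 and -1.71), and Cd79b (1.18, -0.631 and -0.684), known as a chain of the B cell receptor.

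Among 9 tested Src family kinases and regulators, 7 were higher and 1 (Src) lower with injury, and 5 were lower with PLX3397 and with the combination. Lyn, a Src kinase of myeloid cells, changed by 2.31, -0.941 and -1.25, and the phosphatase Ptprc (CD45) by 2.61, -0.906 and -1.46. Fyn, named here after its value was seen, was the 1 gene of all lists called with Anakinra alone (-0.215 ± 0.042, adjusted p = 0.0381). Of 3 tested relatives of Syk and Btk, Tec alone was called. Of 17 adaptor and downstream genes of PLCG2, 10 were higher and 5 lower with injury, 6 were lower with PLX3397, and 9 were lower and 1 higher with both drugs. Lat2 (2.35, -0.941 and -1.21) and Lcp2 (2.34, -0.963 and -1.27), both scaffold adaptors of blood cells, had the smallest p with both drugs.

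In the list of Vav relatives and the Rac pathway, 6 of 7 were higher with injury and 5 lower with PLX3397 and with both drugs, among them the Rac activator Dock2 (2.51, -1.02 and -1.40) and Nckap1l, a subunit of the actin-regulating WAVE complex of blood cells (2.31, -1.12 and -1.44). In the PI3 kinase list, 4 of 12 were higher and 3 lower with injury, near the shares of all genes (26.6% and 27.7%), with a median of -0.022 compared with -0.013 over all genes. With PLX3397 4 of the 12 were lower (median -0.076). Its 2 leading genes are the adaptor Pik3ap1 (2.77, -1.05 and -1.47) and the leukocyte subunit Pik3cg (1.57, -1.08 and -1.17).

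Of 17 tested receptors with an inhibitory ITIM, the counterpart of the ITAM, or related to these, 16 were higher with injury, 15 lower with PLX3397 and 16 lower with both drugs. Fcgr2b, the inhibitory Fc receptor, changed by 3.45, -1.25 and -1.81, and the collagen receptor Lair1 by 1.78, -0.942 and -1.14. This list also held the only pathway genes that were lower with PLX3397+Anakinra than with PLX3397 at adjusted p below 0.05, Lilr4b (-0.88 ± 0.161, adjusted p = 0.0142), Cd300lf (-0.671 ± 0.13, adjusted p = 0.0283) and Pirb (-0.779 ± 0.16, adjusted p = 0.0415), which were named after their values were seen. Lilr4b and Cd200r1 of this list carry no ITIM of their own. Border macrophage markers also differed here, with 3 of 7 called lower in the same comparison, whereas 0 of 10 microglial markers were, and the part of these cells in the result was not tested. Of 8 inhibitory phosphatases and adaptors, 4 were higher and 1 lower with injury and 3 were lower with PLX3397, with Ptpn6 (SHP-1), the phosphatase that binds ITIMs, moving most (3.04, -1.13 and -1.45) and Dok2 less (0.535, -0.429 and -0.383).

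**Figure D5:**
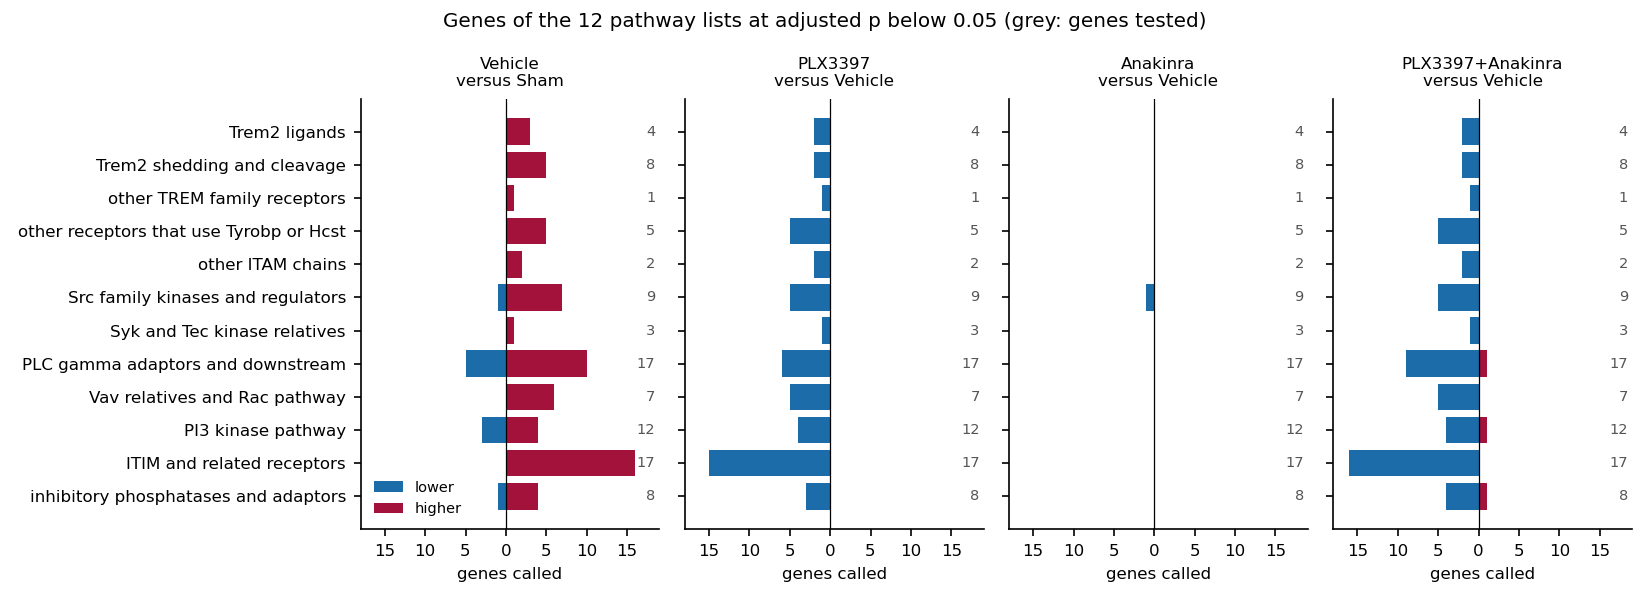
Number of genes in each of the 12 lists (rows) that were called lower (left, blue) or higher (right, red) at adjusted p below 0.05 in 4 comparisons, with the number tested in grey. With Anakinra 1 gene of the 93 was called, and in the 2 comparisons with PLX3397 the calls lie almost wholly on the lower side.

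Variation between mice of the same group was used to find the genes most like Trem2 and Syk, as the Pearson correlation of log2(TPM + 1) after the group means were subtracted, over 24 libraries and the 12522 genes whose mean reached 5 TPM. For Trem2 these were Ctsa, a lysosomal protease (r = 0.924), Tyrobp (0.919), the myeloid transcription factor Irf8 (0.901), D17H6S56E-5 (0.891) and the complement chain C1qc (0.89). For Syk they were Rrbp1 (0.902), Adamts2, a protease that trims collagen precursors (0.884), Plekhg2 (0.868), Gpr157 (0.857) and Fmnl3 (0.853). Trem2 and Syk correlated with each other at r = 0.315, which placed Syk at rank 2102 for Trem2, while Inpp5d was the member closest to Syk (r = 0.808, rank 25). Btk was not ranked because of its low level. These correlations are descriptions, since tissue composition can differ between mice of a group, and no p is given.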

How the data were processed

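RNA of the lesion and its surroundings was sequenced as polyA-selected, paired-end libraries, 1 for each of 24 mice. The authors mapped the reads to mm10 (GRCm38) in CLC Genomics Workbench and deposited TPM, with no read counts, in 3 tables. The full table (36333 genes) was used, and the others served as alternatives. The authors' TPM sum to 1000000 per library, and depth is therefore unknown.

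Groups came from the sample labels. The 17267 genes whose mean reached 0.5 TPM were fitted as log2(TPM + 1) in limma 3.58.1 (R 4.3.3), with 1 mean per group, all 24 libraries and a variance trend. Every p of a gene comes from limma with Benjamini-Hochberg adjustment unless another test is named. The fold changes understate those of genes with low TPM. The interaction is PLX3397+Anakinra minus PLX3397, less Anakinra minus vehicle. Ratios were tested by exact two-sided permutation over mice, which with 5 against 5 or 4 mice cannot give a p below 0.00794. Scripts were tested on simulated data.

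Named genes are the 9 members, their paralogues, the 2 genes of each list with the smallest p in PLX3397+Anakinra versus vehicle, and the 5 most like Trem2 or Syk. Outside this rule, Src, Fyn, Lilr4b, Cd300lf, Pirb and Cd200r1 were named after their values were seen, and Ppp1r1b and Ly6g as markers. The members, lists and rule were chosen with earlier results of these data known. Positions are from GENCODE M21. Only vehicle mice have a B in their number, which cannot be told apart from vehicle treatment. The study's supplement gives food intake by cage, with mice sharing cages. The labels do not say which mice of a group shared a cage or a litter, and neither was in the fit. The p-values therefore measure the spread between these mice. P-values and F values of the authors' own tests in the filtered table were not used.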

Additional observations from a re-analysis of the deposited data

Results flagged for a closer look

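Among 45 sets of values (9 members in 5 groups), 2 held a mouse far from the others of its group, where chance gives about 2.25. In the PLX3397 group, mouse J02 had 184.7 TPM of Trem2, and its gap to the next mouse made up 0.773 of the range of the group. The same mouse had 9.027 TPM of Vav1, with a gap of 0.877 of the range. Both values are high, and both stayed below every vehicle mouse.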

How the results depend on the processing

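Over all alternatives, 320 counts of members called stayed within 1.5 times their value and 1 did not, namely the combination against PLX3397, where leaving out 1 mouse gave from 0 to 1 members called (Vav1 without mouse J03). Tyrobp, Hcst and Syk lost their call for PLX3397 in the unequal-variance test, and Syk with both drugs against sham lost its call in that test and with no filter on low TPM. Rescaling by median ratios shifted the median of all genes by at most 0.03. With the filter at a mean of 5 TPM Btk was not tested. Depth is unknown, and the tests resolve only the spread of 4 or 5 mice.

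Signs that turned when 1 mouse was left out belonged to differences without a call. With Anakinra these were Tyrobp (-0.082 to 0.091), Hcst (-0.059 to 0.094), Cd33 (-0.117 to 0.022) and Btk (-0.128 to 0.047). In the interaction they were Syk (-0.171 to 0.007), Plcg2 (-0.057 to 0.094), Inpp5d (-0.091 to 0.067) and Cd33 (-0.184 to 0.022). The others were Cd33 with PLX3397 against sham (-0.074 to 0.117) and Hcst with the combination against PLX3397 (-0.306 to 0.013).

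Among log2 ratios, Trem2 to Tyrobp turned for PLX3397 against vehicle (-0.055 to 0.008), the combination against vehicle (-0.03 to 0.033) and against PLX3397 (-0.006 to 0.059). Hcst to Tyrobp turned for PLX3397 (-0.037 to 0.107), Anakinra (-0.095 to 0.067) and the combination against PLX3397 (-0.041 to 0.37). Trem2 to Syk in the combination against Anakinra became -0.05 with ratios of TPM + 1. Some ratio differences lost their call with 1 mouse fewer. For injury, where the smallest possible p is then higher, they were Trem2 to Tyrobp (-0.346 to -0.285), Hcst to Tyrobp (-0.599 to -0.339), Trem2 to Syk (0.853 to 1.271) and Plcg2 to Plcg1 (2.294 to 2.467). Among TBI groups they were Trem2 to Tyrobp for Anakinra (-0.218 to -0.16) and the combination against Anakinra (0.161 to 0.222), and Plcg2 to Plcg1 for PLX3397 (-1.216 to -1.039) and the combination (-1.409 to -1.237). For Plcg2 to Plcg1 the group ranges stay apart without any 1 mouse, and these calls were lost only through the adjustment with the other ratio tests.

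Vehicle and PLX3397 share 3 animal numbers, and the deviations of same-numbered mice correlated at 0.217, 0.022 and -0.157. The labels do not say what the numbers mean. These 3 values cannot show whether same-numbered mice share more than a number. With the replicate block on these 6 mice 9 members were called (Trem2 log2 fold change -1.152), and without the block on the same mice, an alternative chosen after seeing the data, 9 as well.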
